A study of Homo sapiens with 3 samples.

Results

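The mRNA levels of 10 genes of the ATF4 arm of the integrated stress response were examined in LX-2 cells, an established human hepatic stellate cell line, after stimulation with rhFGF19 (recombinant human FGF19). The genes were chosen by name, though with earlier results of these data known. They were the transcription factors ATF4, ATF3 and DDIT3, the amino acid synthesis enzymes ASNS, PSAT1 and PHGDH, and the feedback and effector genes PPP1R15A, TRIB3, CHAC1 and SESN2. All 10 were listed among the 24254 gene symbols of the table, and all 10 were among the 12422 symbols whose FPKM (fragments per kilobase of transcript, scaled to library size) averaged at least 0.5 over the libraries, which are called the tested genes here. The study asked how FGF19, a gut hormone released by colorectal cancer cells, changes the state of hepatic stellate cells. The series held 3 libraries: 1 of vehicle-treated LX-2 cells, 1 of LX-2 cells given rhFGF19 at 50 ng/mL and 1 given 100 ng/mL. The labels name no other agent or genetic change, and every group was the same cell line in culture. The doses used here are those of the sample titles. Another label field exchanges the doses of the rhFGF19 libraries and gives 72 h and 73 h of stimulation, where the design text gives 24 h.

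In the integrated stress response, kinases that sense endoplasmic reticulum stress, amino acid shortage, viral RNA or heme shortage phosphorylate the translation factor eIF2, which lowers general protein synthesis while upstream open reading frames let the ATF4 mRNA be translated more. ATF4 protein then drives transcription of genes of amino acid synthesis and transport, of further transcription factors such as ATF3 and DDIT3 (CHOP), and of brakes on the response such as TRIB3 and PPP1R15A (GADD34), a subunit that directs a phosphatase to eIF2. Because ATF4 is controlled largely at translation, its mRNA level is not a measure of its protein, and only mRNA was measured here.

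ATF4 often acts through the C/EBP-ATF composite element, a short sequence bound by ATF4 together with a C/EBP protein. The 250 bases before the start site of each gene were therefore searched on both strands for TGATGNAAN, a form of that element, and for TGACGTCA, the palindromic cAMP response element. The sequences came from RefSeq (GRCh38.p14), where all 10 genes were matched, with 16 start sites between them. The 4 windows that held a match are shown because they let the presence of the element be set beside the fold change of its gene. Matches are in capitals, none overlaps another, and each sequence runs 5′ to 3′ on the strand of its gene.
ASNS (chr7:97872409-97872658, reverse strand): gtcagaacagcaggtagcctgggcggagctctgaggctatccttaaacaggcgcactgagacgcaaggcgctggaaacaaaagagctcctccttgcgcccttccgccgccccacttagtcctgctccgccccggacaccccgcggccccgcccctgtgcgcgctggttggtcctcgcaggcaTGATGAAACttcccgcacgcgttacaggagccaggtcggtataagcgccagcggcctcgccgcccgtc
ATF3 (chr1:212565157-212565406, forward strand): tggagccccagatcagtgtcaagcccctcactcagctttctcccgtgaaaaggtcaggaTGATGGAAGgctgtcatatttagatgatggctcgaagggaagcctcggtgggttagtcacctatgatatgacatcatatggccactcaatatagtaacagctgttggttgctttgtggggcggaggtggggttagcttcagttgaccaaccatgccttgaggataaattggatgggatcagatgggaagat
CHAC1 (chr15:40953221-40953470, forward strand): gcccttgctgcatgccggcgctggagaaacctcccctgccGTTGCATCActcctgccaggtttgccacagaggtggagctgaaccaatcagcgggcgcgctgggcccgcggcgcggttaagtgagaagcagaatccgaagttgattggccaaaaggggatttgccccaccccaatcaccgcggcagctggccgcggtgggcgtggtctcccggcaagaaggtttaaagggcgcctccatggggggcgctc
PPP1R15A (chr19:48872171-48872420, forward strand): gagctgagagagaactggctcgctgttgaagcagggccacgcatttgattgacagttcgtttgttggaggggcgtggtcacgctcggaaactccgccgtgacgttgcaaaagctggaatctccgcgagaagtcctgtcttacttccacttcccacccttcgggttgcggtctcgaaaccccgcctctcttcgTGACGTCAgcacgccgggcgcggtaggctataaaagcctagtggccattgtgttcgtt
TGATGNAAN was found before 3 of the 10 genes, against 3.87% of all 27305 symbols with such a window and 2.07% of the 9028 that were also tested. In ASNS, asparagine synthetase, the match TGATGAAAC lay 68 to 60 bases before the start. In ATF3 it was TGATGGAAG, 191 to 183 bases before the start. ASNS and ATF3 each had a further start site whose window held no match. CHAC1, which degrades glutathione, held the match on the opposite strand as TGATGCAAC, 210 to 202 bases before the start. TGACGTCA was found before PPP1R15A alone, 58 to 51 bases before the start, against 2.03% of all symbols and 3.61% of the tested ones. A match describes letters only, and no binding was measured.

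The vehicle library stood apart from both rhFGF19 libraries over the whole table, and every comparison with vehicle rests on it. Of the tested genes, 39.5% passed 2-fold higher and 1.75% passed 2-fold lower at 50 ng/mL, and 38.6% and 1.47% did so at the higher dose. Between the rhFGF19 libraries, where vehicle plays no part, 0.845% passed 2-fold higher at 100 than at 50 ng/mL and 0.797% lower. The median log2 fold change of the tested genes against vehicle was 0.62 at both doses, on the log2(FPKM + 0.1) scale used for all fold changes here, which understates the change of low genes. The fold change against vehicle followed the GC content of the transcripts, with Spearman's rho across tested genes of -0.77 at both doses, against 0.068 between the doses. With a smooth trend on GC content removed, 3.74% of the tested genes passed 2-fold higher and 5.13% lower at 50 ng/mL, against 3.33% higher and 4.59% lower at the higher dose. Both doses are compared with the same single vehicle library, so they are not independent of each other. No group had a replicate, so no p-value, replicate SD or confidence interval could be given. Of 10 stellate cell markers 8 were tested, of which 2 passed 2-fold higher at each dose (COL3A1, at 1.79, 4.15 and 4.30 FPKM in the vehicle, 50 and 100 ng/mL libraries, and LOX, at 1.90, 4.33 and 4.39 FPKM) and 0 lower. TIMP1 (308.41, 183.64 and 192.97 FPKM) and ACTA2 (8.55, 8.01 and 7.74 FPKM) had the lowest fold changes of that list, VIM was the most abundant of it at 439 to 654 FPKM, and COL1A2 and DES were at no more than 0.14 FPKM. Hepatocyte markers summed to between 11.3 and 12.6 FPKM, nearly all of it SERPINA1 and ALB with HNF4A at no more than 0.01 FPKM, and epithelial and endothelial markers to at most 1.19 FPKM. Of the blood cell markers CD68 was at 47.53, 44.18 and 39.81 FPKM, and ITGAM, HBB and LYZ were at no more than 0.16 FPKM. In bulk RNA, fewer cells that express a gene and less RNA per cell cannot be told apart.

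The 10 genes did not move as a block. Against vehicle, 5 were higher at both doses (ASNS, PSAT1, ATF3, DDIT3 and ATF4) and 5 were lower at both (PHGDH, TRIB3, CHAC1, PPP1R15A and SESN2), although the direction of 6 of them, all but ASNS, PHGDH, TRIB3 and CHAC1, turned under at least 1 other scaling or trend removal. Of all tested genes, 34.3% were below vehicle at 50 ng/mL and 34.1% at the higher dose. At 50 ng/mL 3 of the 10 passed 2-fold higher (ASNS, PSAT1 and ATF3), and at 100 ng/mL 2 did (ASNS and PSAT1), below the shares of all tested genes given above. None passed 2-fold lower at either dose. The median of their log2 fold changes was 0.013 at the lower and 0.066 at the higher dose, lower than the median of all tested genes, and 3 of the 10 lay above that median at each dose. In FPKM, which is scaled per length, their sum was 467 with vehicle and 434 at each dose, or 0.155%, 0.157% and 0.154% of all FPKM.

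**Figure D1:**
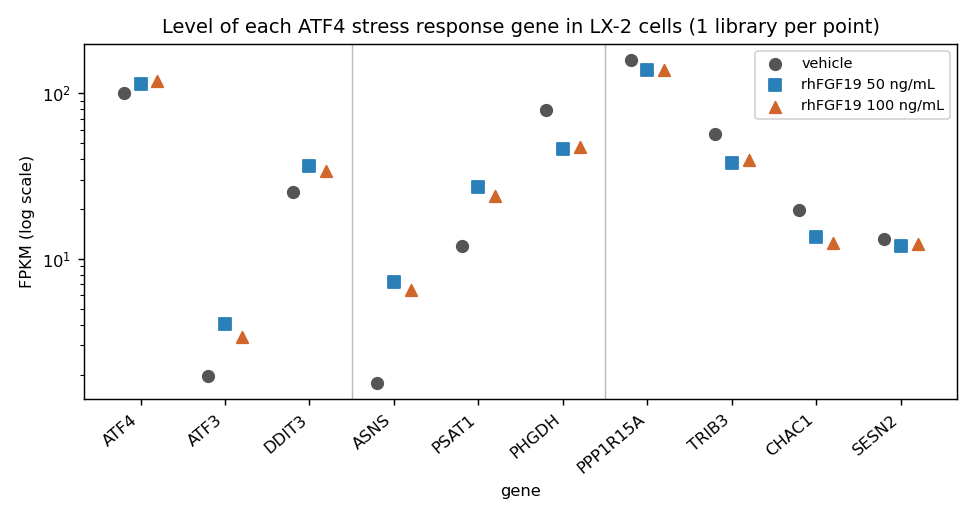
FPKM (log axis) of the 10 genes in the vehicle (circle), 50 ng/mL (square) and 100 ng/mL (triangle) rhFGF19 libraries, 1 library per point. ASNS, at 1.77, 7.25 and 6.50 FPKM, shows the widest gap to vehicle, and the rhFGF19 points lie close together for every gene.

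By level, PPP1R15A, ATF4, PHGDH, TRIB3 and DDIT3 were in this order the 5 highest of the 10 genes in all 3 libraries. ASNS was the lowest with vehicle, and ATF3 was the lowest at both doses. The ratio of the highest to the lowest member was 89.2 with vehicle, 34.1 at 50 ng/mL and 40.9 at the higher dose. With 1 library per group the order of close neighbours, such as SESN2 and CHAC1 at 100 ng/mL, has no spread to be judged against.

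Among the transcription factors, ATF4 itself was an abundant mRNA that differed little from vehicle. ATF4 (ENSG00000128272, chr22:39519672-39522683, coordinates as deposited, which match GRCh38) was at 100.13 FPKM with vehicle, 112.80 at 50 ng/mL and 118.13 at the higher dose. These are log2 fold changes of 0.17 and 0.24, higher than vehicle at both doses but below the median of the tested genes, and the direction turned at 50 ng/mL when the median ratio was set to 0 and at both doses with a length trend removed. Of the tested genes, 38.6% had a lower fold change than ATF4 at 50 ng/mL and 40.3% at the higher dose. The 3 genes whose fold changes lay nearest to those of ATF4, among 3790 that averaged at least 10 FPKM, were DEDD, SOD1 and UBE2Z, at distances of 0.015, 0.019 and 0.024 in the pair of log2 fold changes. Such a pattern was common, with 101 genes (2.66%) within 0.1 of ATF4. Its pseudogenes ATF4P3 and ATF4P4 were at no more than 0.78 FPKM.

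ATF3, a repressor and early stress factor, was low in all libraries. ATF3 (ENSG00000162772, chr1:212565334-212620772) was at 1.95 FPKM with vehicle, 4.04 at 50 ng/mL and 3.35 at the higher dose. Its log2 fold change was just past 2-fold at 50 ng/mL, at 1.01, and was 0.75 at the higher dose. At 50 ng/mL the value was 0.77 with a pseudocount of 1 and 0.21 under quantile normalization, both short of 2-fold. ATF3 also had the widest difference between the doses of the 10 genes, at -0.26 for 100 against 50 ng/mL. This is smaller than the SD of 0.32 of that difference over all tested genes, but only 7.90% of them had a lower value. The direction against vehicle turned under quantile normalization at 100 ng/mL and, at both doses, with the GC content of the longest transcript removed. DDIT3, which encodes the CHOP protein that promotes apoptosis under prolonged stress, was higher than ATF3 in every library. DDIT3 (ENSG00000175197, chr12:57516588-57521737) was at 25.42 FPKM with vehicle, 36.15 at 50 ng/mL and 33.64 at the higher dose. The log2 fold changes of 0.51 and 0.40 lay below the median of the tested genes and turned to -0.19 and -0.27 with the GC trend removed. The gene overlaps MARS1 and MBD6 on the opposite strand, and MARS1 was at 36.94, 44.86 and 44.29 FPKM. Strand use in the libraries is not stated, so reads of the overlap cannot be told apart.

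The amino acid synthesis enzymes went in opposite directions in the deposited FPKM, and they hold both the highest and the lowest fold change of the 10 genes. ASNS (ENSG00000070669, chr7:97851677-97872542), which makes asparagine from aspartate and glutamine, was at 1.77 FPKM with vehicle, 7.25 at 50 ng/mL and 6.50 at the higher dose. Both rhFGF19 libraries were far above vehicle, 3.93-fold and 3.53-fold on the log2(FPKM + 0.1) scale (log2 fold changes of 1.97 and 1.82). The fold change of ASNS exceeded that of 98.0% of the tested genes at 50 ng/mL and of 96.3% at the higher dose. The gene overlaps AC079781 on the same strand (1.64, 0.93 and 1.07 FPKM) and AC005326 on the opposite strand (0, 0.81 and 0.47 FPKM). Both were lower than ASNS, but with vehicle AC079781 was close to the 1.77 FPKM of ASNS. Reads of the overlap cannot be told apart, and their part in the vehicle value of ASNS was not tested.

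PHGDH and PSAT1 catalyse the first and the second step of serine synthesis from 3-phosphoglycerate. PHGDH (ENSG00000092621, chr1:119648411-119744218) was at 78.52 FPKM with vehicle, 45.72 at 50 ng/mL and 47.41 at the higher dose. PSAT1 (ENSG00000135069, chr9:78297125-78330093) was at 11.90, 26.92 and 23.98 FPKM. PHGDH was thus lower than vehicle in both rhFGF19 libraries, with log2 fold changes of -0.78 and -0.73, and 6.12% and 6.57% of the tested genes had a lower one. PSAT1 was higher, at 2.25-fold and 2.01-fold (log2 1.17 at the lower dose, and just past 2-fold at the higher), but its direction turned with the GC trend removed. The ratio of PHGDH to PSAT1 in FPKM was 6.60 with vehicle, 1.70 at 50 ng/mL and 1.98 at the higher dose. Neighbouring steps of 1 pathway thus went in opposite directions in the deposited FPKM. Of the 13 alternatives that recomputed fold changes, PSAT1 kept its direction under 10 and PHGDH under all 13, at both doses. PSAT1 turned only where a GC trend was removed. With the GC trend removed both were below 0, PSAT1 at -0.15 and -0.29 and PHGDH at -0.70 and -0.66. The ratio of PHGDH to ASNS was 44.4, 6.31 and 7.29.

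The feedback and effector genes were all lower than vehicle at both doses in the deposited FPKM, though only TRIB3 and CHAC1 kept that direction under every other scaling tried. TRIB3 (ENSG00000101255, chr20:362835-397559), a pseudokinase that restrains ATF4 and DDIT3, was at 56.83 FPKM with vehicle, 37.77 at 50 ng/mL and 39.20 at the higher dose. CHAC1 (ENSG00000128965, chr15:40952962-40956512) was at 19.80, 13.61 and 12.44 FPKM. Their log2 fold changes were -0.59 and -0.53 for TRIB3 and -0.54 and -0.67 for CHAC1, short of 2-fold. With the GC trend removed little was left, at -0.13 and -0.095 for TRIB3 and -0.15 and -0.29 for CHAC1. In the deposited FPKM CHAC1 lay below vehicle and ASNS above it, and both held a match to the composite element before their start. Their GC contents were 61.3% and 44.5%, where the GC trend at 50 ng/mL was -0.39 and 1.29. Any link of the match to the fold change was not tested.

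PPP1R15A (ENSG00000087074, chr19:48872421-48876058) was the most abundant of the 10 genes in each library, at 157.81 FPKM with vehicle, 137.72 at 50 ng/mL and 137.02 at the higher dose. Its log2 fold change was -0.20 at both doses, and it turned to 0.078 and 0.053 under quantile normalization and also with the GC content of the longest transcript removed. SESN2 (ENSG00000130766, chr1:28259518-28282491), a stress protein that senses leucine and restrains mTORC1, was at 13.14, 11.87 and 12.20 FPKM. The fold changes of SESN2, -0.15 and -0.11 in log2, were the smallest in size of the lower genes and turned to 0.15 and 0.18 with the GC trend removed.

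**Figure D2:**
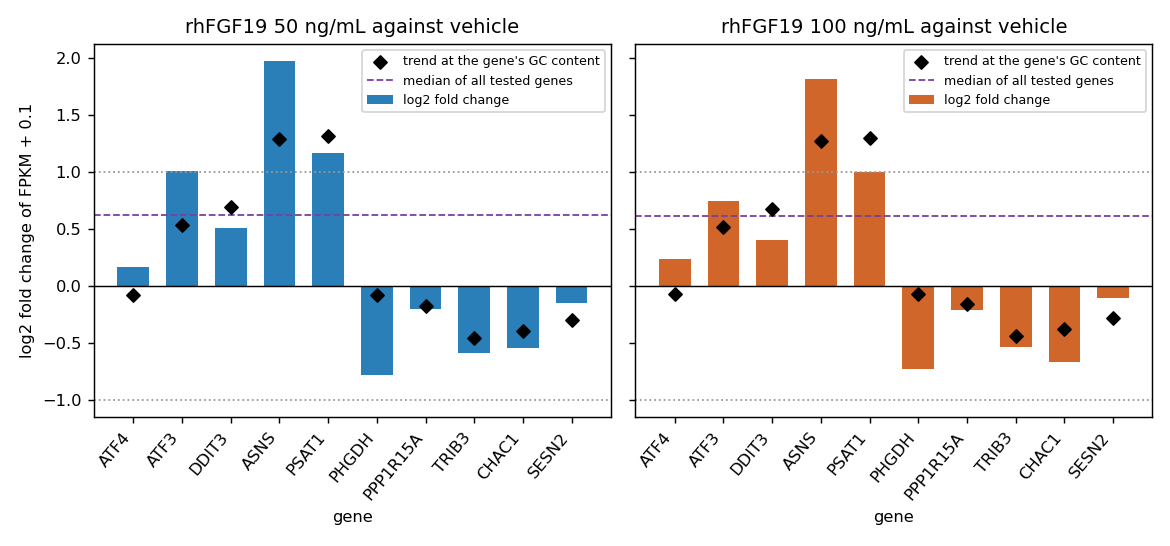
Log2 fold change of FPKM + 0.1 (bars, from 0) of each gene at 50 and 100 ng/mL rhFGF19 against vehicle, with the median of all tested genes (dashed line at 0.62), the 2-fold limits (dotted lines) and the value of the GC trend at the gene's GC content (diamonds). The bars range from 1.97 for ASNS to -0.78 for PHGDH at 50 ng/mL, and the diamonds are above 0 for ASNS, PSAT1, DDIT3 and ATF3 and below 0 for the other 6 genes.

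Between the doses, a comparison in which the vehicle library plays no part, the 10 genes lay close together. None of the 10 passed 2-fold in either direction, and the median log2 fold change of 100 against 50 ng/mL was -0.055. The median size of the log2 difference was 0.085 over the 10 genes and 0.089 over all tested genes. It was smaller, 0.051, over the 3791 tested genes that averaged at least 10 FPKM, a level that all members but ATF3 and ASNS reached. ATF4, PHGDH, TRIB3 and SESN2 were slightly higher at 100 ng/mL, by at most 0.067, and the other 6 were lower. An exchange of the dose labels would turn the sign of these differences and not their size.

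The fold changes of the 10 genes against vehicle were ordered by the GC content of their transcripts, as in the table at large. ASNS and PSAT1, the members with the lowest GC content (44.5% and 44.1%), had the highest fold changes, and TRIB3 and CHAC1, with the highest GC content (63.1% and 61.3%), were among the lowest. Across the 10 genes Pearson's r of GC content and log2 fold change was -0.90 at both doses and Spearman's rho was -0.84 and -0.83, a description over genes of the same libraries, which are not independent replicates. The median GC content was 56.7% over the 10 genes and 51.1% over all tested genes. With the GC trend removed, none of the 10 passed 2-fold in either direction, and their medians were -0.079 and -0.070. The SD of the log2 fold change over the 10 genes went from 0.90 to 0.39 at 50 ng/mL and from 0.82 to 0.36 at 100 ng/mL, while over all tested genes it went from 0.93 to 0.62 and from 0.90 to 0.59. The part of GC content in these differences, as against rhFGF19, cannot be told apart with 1 library per group.

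What remained after that step was again widest for ASNS and PHGDH. ASNS lay above the trend by 0.68 at 50 ng/mL and 0.55 at the higher dose, higher than 91.2% and 87.6% of the tested genes. PHGDH lay below it by -0.70 and -0.66, with 10.1% and 10.5% of the tested genes lower. ATF4 lay above it by 0.25 and 0.30. PHGDH and ATF4 have the same GC content to 3 digits (56.7%), and the trend at that GC content was -0.075 for ATF4 and -0.078 for PHGDH at 50 ng/mL, while their fold changes as deposited were 0.17 and -0.78. With the GC content of the longest transcript in place of the median over transcripts, ASNS was at 0.99 and 0.85, PHGDH at -1.15 and -1.09 and ATF3 at -0.0036 and -0.25, so the value of ATF3 depends on which transcript is taken. ASNS was higher and PHGDH, TRIB3 and CHAC1 were lower than vehicle at both doses under all 13 alternatives that recomputed fold changes, with ASNS between 0.55 and 1.96 and PHGDH between -1.26 and -0.49 at 100 ng/mL. At that dose TRIB3 came as near to 0 as -0.094 and CHAC1 as -0.25, with GC and length trends removed.

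Upstream of ATF4, the genes for the eIF2 kinases and the phosphatase subunits and cofactors around them were mostly higher than vehicle. Of 11 tested, 9 passed 2-fold higher at each dose (39.5% and 38.6% of all tested genes did) and 0 lower, with medians of 1.49 and 1.47. EIF2AK2 (PKR, the kinase that senses double-stranded RNA) was at 0.94, 3.84 and 3.25 FPKM, and DNAJC3 (p58IPK, an inhibitor of these kinases) was at 1.70, 5.77 and 5.18 FPKM. GCN1, an activator of the amino acid sensing kinase GCN2, was at 35.98, 39.75 and 37.90 FPKM, and PPP1CA, the catalytic subunit that PPP1R15A binds, was at 514.02, 281.36 and 288.83 FPKM. The list was rich in transcripts of low GC content, with a median of 43.4%, and its medians were 0.23 and 0.11 with the GC trend removed, where none passed 2-fold.

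Other known or proposed ATF4 targets were as mixed as the 10 genes. Of 37 tested, 12 passed 2-fold higher at each dose (39.5% and 38.6% of all tested genes did) and 0 lower. Their medians were 0.37 and 0.22, both under the median of all tested genes. XPOT, which exports tRNA from the nucleus, was at 2.53 FPKM with vehicle, 9.64 at 50 ng/mL and 9.08 at the higher dose, and the glutamine transporter SLC38A2 was at 9.63, 34.95 and 33.86 FPKM. EIF4EBP1, an inhibitor of cap-dependent translation, was at 286.39, 155.24 and 171.76 FPKM, and PYCR1, an enzyme of proline synthesis, was at 65.38, 40.08 and 39.28 FPKM. Serine synthesis has PSPH as its last enzyme, named here after its values were seen, at 2.55, 5.31 and 5.86 FPKM. In the deposited FPKM PSPH was thus higher than vehicle, as PSAT1 was and unlike PHGDH. PSPH stayed above 0 with the GC trend removed, at 0.90 and 1.04, where PSAT1 and PHGDH were both below 0. With the GC trend removed the medians of the list were 0.10 and 0.076, with 1 gene past 2-fold higher at each dose and 1 lower at 50 ng/mL. The higher gene was not the same: SLC7A1 at 50 ng/mL and PSPH at 100 ng/mL. SLC7A1, named here after its values were seen, was at 1.02 and 0.99 at 50 and 100 ng/mL. A match to TGATGNAAN stood before 6 of the 28 that had a window (21.4%: CEBPG, JDP2, HERPUD1, SLC1A5, GARS1 and AARS1), and TGACGTCA stood before none.

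The partners with which ATF4 can dimerize showed little common movement. Of 7 tested, 1 passed 2-fold higher at each dose (CEBPG, at 2.31, 5.65 and 5.14 FPKM) and 0 lower. Of all tested genes, 39.5% and 38.6% passed 2-fold higher. The medians of the list were 0.092 and 0.13. JUN was at 38.16, 67.13 and 65.03 FPKM, CEBPB at 86.70, 71.66 and 70.45 FPKM and BATF3 at 5.45, 2.74 and 3.10 FPKM. With the GC trend removed the medians were 0.27 and 0.24, with 1 gene past 2-fold in each direction at 50 ng/mL and none at 100 ng/mL.

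The other arms of the unfolded protein response, which run through ATF6, IRE1 and their chaperone targets, were examined beside the ATF4 arm. Of 17 tested, 8 passed 2-fold higher at each dose (39.5% and 38.6% of all tested genes did) and 0 lower, with medians of 0.91 and 0.77. ATF6 was at 0.77, 3.19 and 2.86 FPKM and the chaperone HSP90B1 at 17.27, 58.54 and 56.92 FPKM. SDF2L1 (66.94, 39.93 and 43.31 FPKM) and CRELD2 (15.47, 10.89 and 11.06 FPKM), both induced by endoplasmic reticulum stress in many cells, were lower than vehicle in the deposited FPKM. The medians were 0.099 and 0.036 with the GC trend removed, and no gene of the list passed 2-fold then.

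The annotation in the deposited table gives terms that the 10 genes share. The genes were chosen as known genes of the stress response, so this sharing follows from the choice and is no result of these data. The term for intrinsic apoptotic signaling in response to endoplasmic reticulum stress is given to 5 of them (ATF4, DDIT3, PPP1R15A, TRIB3 and CHAC1) and to 0.225% of the tested symbols. The PERK-mediated unfolded protein response is given to ATF4, ATF3, DDIT3 and ASNS and to 11 tested symbols in all. ASNS, PSAT1 and PHGDH share cellular amino acid biosynthesis, and ATF4, ATF3 and SESN2 share the response to amino acid starvation.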

How the data were processed

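LX-2 mRNA was sequenced from 1 culture per condition. The authors deposited 1 FPKM value per gene and library, written to 2 decimals, for 26108 genes with coordinates and GO terms. Their submission notes list HISAT2 2.0, StringTie 1.3.0 and Bowtie 0.12.2 and the builds hg19 and mm8 with no role, and their methods describe logCPM, which the table does not hold. The coordinates overlapped GRCh38 for 99.7% of 25531 identifiers shared with GENCODE v29. FPKM divides by transcript length and library total, low values showed no steps of whole reads, and depth is therefore unknown, so no count test, interval or floor was available.

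From these values, rows sharing a symbol were summed, those averaging at least 0.5 FPKM over the 3 libraries were kept, and log2(FPKM + 0.1) was compared between single libraries. Past 2-fold means an absolute log2 fold change above 1, the criterion of the study. No p-values were computed. GC content was the median over each gene's listed transcripts in GENCODE v29 (99.8% of tested symbols, though only 1 of 6 listed transcripts of ATF4 was found), and its trend was fitted by lowess (span 0.3) and subtracted. The 10 genes, the lists and the motifs were chosen with earlier results of these data known. Besides the 10 genes, the named genes were the 2 highest and 2 lowest of each list by mean fold change with a mean of at least 1 FPKM, and the 3 nearest to ATF4. VIM, COL1A2, DES, HNF4A, ITGAM, HBB and LYZ are outside that rule and were named, after their values were seen, for the check of cell identity. All 14 alternatives, other pseudocounts, filters, scalings, thresholds and trends, and 1 added after seeing the data are described under the effect of the processing. Python 3.11.15, NumPy 2.4.6, pandas 2.3.3 and statsmodels 0.14.6 were used, and the procedure was tested on simulated data.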

Additional observations from a re-analysis of the deposited data

How the results depend on the processing

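With 1 library per group and no counts, no spread between cultures is known, and a value was taken to have moved when it changed by more than 0.32, the SD of the log2 difference between the rhFGF19 libraries over all tested genes. Under 14 alternatives and 1 chosen after seeing the data, 316 of 380 fold changes of the 10 genes moved by less than that, 57 moved by more and 7 changed sign after passing 2-fold. The 316 are no measure of stability. The other filters and the highest row of each symbol could not change any value of the 10 genes, and all differences between the doses are among the 316. The count between the doses was 0 under every alternative but the mean of both rhFGF19 libraries, which leaves no such comparison. The cause of the changes below was not tested, except where an alternative sets another threshold. No paired analysis was possible because each group has 1 library.

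At 100 ng/mL the count of members past 2-fold was 1 (ASNS) with a pseudocount of 1, with the median ratio to vehicle set to 0 and under quantile normalization. At 50 ng/mL it was 2 (ASNS and PSAT1, without ATF3) with a pseudocount of 1, under quantile normalization and with the mean of both rhFGF19 libraries. With the median ratio set to 0 the medians were -0.22 and -0.16 at 50 and 100 ng/mL. At 50 ng/mL ASNS then passed 2-fold higher and PHGDH 2-fold lower, and ATF3 and PSAT1 did not pass. With the GC trend removed the counts were 0 and 0, the medians -0.079 and -0.070, and PSAT1 was at -0.15 and -0.29. With a length trend removed the medians were -0.66 and -0.62 and the counts 4 and 4, in each case 1 higher (ASNS) and 3 lower. With GC and length trends removed together the counts were 0 and 0, the medians -0.098 and -0.10, and PSAT1 was at -0.18 and -0.33. With the GC content of the longest transcript, the added alternative, the counts were 1 and 1 (PHGDH, lower), the medians -0.076 and -0.21, ATF3 was at -0.0036 at 50 ng/mL, and PSAT1 was at -0.18 and -0.32. A log2 threshold of 2 left 0 and 0, and one of 1.5-fold gave 5 and 5.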

Other observations

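The genes for the subunits of eIF2, the target of the stress kinases, and of its exchange factor eIF2B were split by subunit. Of 8 tested, 4 passed 2-fold higher at each dose (39.5% and 38.6% of all tested genes did) and 0 lower. The median log2 fold changes were 1.08 and 0.96. EIF2S3 was at 4.83 FPKM with vehicle, 15.91 at 50 ng/mL and 16.04 at the higher dose, and EIF2S2 at 6.21, 18.39 and 18.76 FPKM. EIF2B2 was at 20.98, 14.25 and 15.24 FPKM and EIF2B5 at 19.35, 15.99 and 16.21 FPKM. With the GC trend removed the medians of the list were -0.18 at both doses, and none passed 2-fold.

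Relatives of the 10 genes, a list of ATF and CREB factors with TRIB1, TRIB2, CHAC2 and the sestrins, were also mixed. Of 11 tested, 5 passed 2-fold higher at each dose (39.5% and 38.6% of all tested genes did) and 0 lower, with medians of 0.93 and 0.95. ATF1, ATF2, CREB1 and ATF6 were among the 5 at both doses, with TRIB1 at 50 ng/mL and CHAC2 at the higher dose, of which ATF2, CREB1, TRIB1 and CHAC2 are named here after their values were seen. ATF1 was at 1.05 FPKM with vehicle, 3.89 at 50 ng/mL and 4.18 at the higher dose, and remained past 2-fold with the GC trend removed, at 1.06 and 1.17. ATF5, another factor of the stress response whose translation is controlled like that of ATF4, was at 17.86, 14.58 and 14.92 FPKM, and CREB3 was at 82.27, 58.33 and 56.14 FPKM.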
